A study of Mus musculus with 6 samples.

Results

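Laminins and the proteins that link them into basement membranes were followed as 10 genes, Lama1, Lama2, Lama4, Lama5, Lamb1, Lamb2, Lamc1, Nid1, Agrn and Hspg2, chosen by symbol among the 54838 gene identifiers of the count tables. All 10 were found. RNA was sequenced from glomeruli, the capillary tufts that filter the blood, isolated from 3-week-old mice. There were 3 libraries labelled KO (146, 147 and 148; genotype bPIX -/-, lost in podocytes only according to the series design) and 3 labelled CTRL (157, 162 and 163; genotype wild type), each from 1 mouse. bPIX is the product of Arhgef7, a guanine nucleotide exchange factor for small GTPases, and podocytes are the epithelial cells that wrap the glomerular capillaries. The sources used here name neither the Cre driver, the strain and the sex nor the way glomeruli were isolated. Each file deposited under a KO label carries a CTRL name and the reverse, in 6 of 6 libraries. Groups follow the sample labels, so if the file names were the correct ones every sign given here would be turned round.

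Basement membranes are thin sheets of extracellular matrix under epithelia and around capillaries. A laminin is a trimer of 1 alpha, 1 beta and 1 gamma chain that polymerizes on the cell surface, and nidogen and the heparan sulfate proteoglycans perlecan and agrin tie this layer to the type IV collagen network. In the developing glomerulus the early alpha chain of Lama1 gives way to that of Lama5 and the beta chain of Lamb1 to that of Lamb2. The mature filtration barrier contains the trimer of Lama5, Lamb2 and Lamc1 chains, which both podocytes and endothelial cells secrete. Loss of LAMB2 in humans causes Pierson syndrome, with congenital nephrotic syndrome.

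The libraries held 39841396 to 51917945 gene counts, and the 10 genes were counted between 101 times (Lama2 in CTRL 162) and 21919 times (Hspg2 in KO 146). Arhgef7, the targeted gene, stood at 133, 89.6 and 85.9 CPM (read counts scaled to the TMM library size) in KO 146, 147 and 148, against 91.9, 94.1 and 88.4 CPM in CTRL 157, 162 and 163. Its edgeR log2 fold change was 0.17 (SE 0.17, Benjamini-Hochberg adjusted p = 0.544), so it did not separate the labels. Exons were not counted separately and the RNA came from mixed cells, so a loss of Arhgef7 in podocytes alone was not tested. Tubule transcripts were abundant: 24 proximal tubule markers summed to 21600 to 36200 CPM in the libraries labelled KO and 45700 to 48500 CPM in those labelled CTRL. Summed over 20 podocyte markers the level was 2930 to 10400 CPM with the KO label and 1290 to 1540 CPM with the CTRL label. The same sums were 1810 to 6090 and 918 to 1070 CPM for 20 glomerular endothelial markers, and 796 to 2920 and 464 to 475 CPM for 20 mesangial and smooth muscle markers. No marker of these lists was at 0 in all 6 libraries. In such whole-tissue RNA, more cells of a type and more RNA per cell cannot be told apart.

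Of the 10 genes, 9 had higher values in all 3 libraries labelled KO than in all 3 labelled CTRL, and Lama1 had lower ones. Among all 17086 genes tested, 21.9% lay above in this way and 19.6% below. In the edgeR quasi-likelihood fit to all 6 libraries 0 of the 10 passed an adjusted p of 0.05, and 1.01% of all tested genes did (0.591% higher and 0.421% lower). The adjusted p values of the 10 lay between 0.0655 (Lama2) and 0.123 (Lama1). At an unadjusted p below 0.05, 9 were higher and 1 lower, against 17.5% and 11.8% of all tested genes. The median log2 fold change was 1.18, beside -0.006 over all tested genes. Single libraries and the tool decided the count: edgeR called 8 of the 10 higher without KO 146 (10.5% of all genes) and 9 without KO 148 (12.9%). It called 0 of the 10 without KO 147 or CTRL 157, 162 or 163, where 0.00574%, 0.00569%, 0.0114% and 0.0284% of all genes were called higher. DESeq2 called 8 of the 10 higher (12.1% of all genes) and limma-voom 0 (0.433%). Over the 14 alternatives the adjusted p values of the 10 ran from 2.87e-06 (Lama4) to 0.957 (Lama1).

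**Figure D1:**
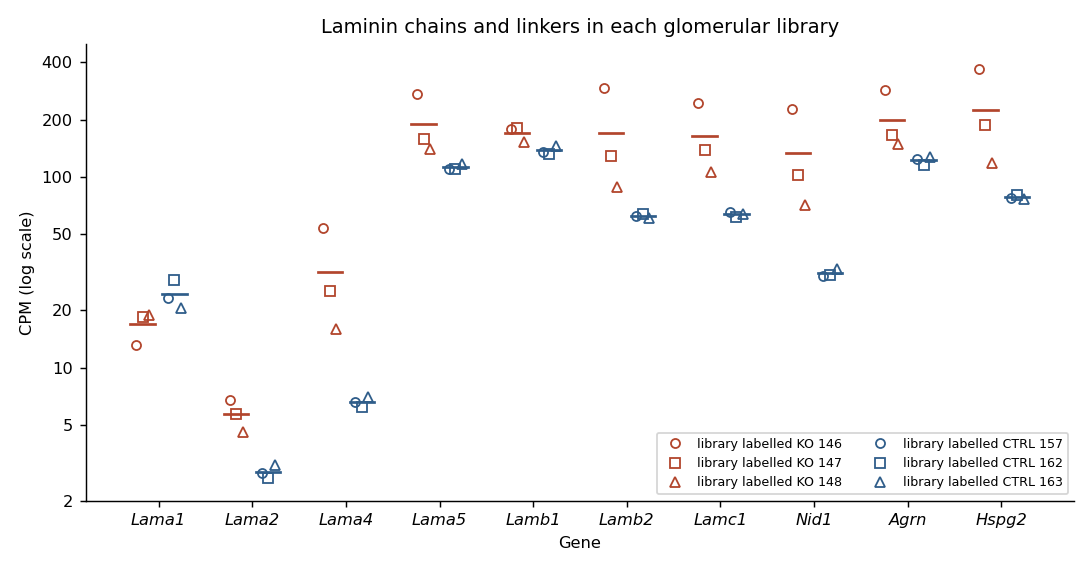
Level of each gene in CPM (log axis) in each library, with libraries labelled KO in red at the left of each pair and those labelled CTRL in blue at the right; lines are group means, n = 3 each. The CTRL points lie close together, while for 8 genes KO 146 is highest and KO 148 lowest of the 3 KO points; Lama1 is the gene whose KO points lie below its CTRL points.

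Among the alpha chains, which carry the cell-binding part of the trimer, Lama4 differed most and Lama1 ran the other way. Lama4, the short alpha chain of endothelial and mesangial matrix (ENSMUSG00000019846, chromosome 10, 38965515 to 39110188, plus strand, GRCm38), had 53.9, 25.4 and 16.0 CPM in KO 146, 147 and 148, against 6.60, 6.20 and 7.05 CPM in CTRL 157, 162 and 163. Each KO library lay above all CTRL libraries, at 8.15, 3.83 and 2.42 times the CTRL mean, and the KO libraries spanned a 3.37-fold range among themselves. The log2 fold change was 2.26 (SE 0.43, edgeR adjusted p = 0.0704). Lama5, the alpha chain of the mature filtration barrier, also present under tubules (ENSMUSG00000015647, chromosome 2, 180176373 to 180225859, minus strand), had 272, 158 and 140 CPM in KO 146, 147 and 148, against 110, 111 and 117 CPM in CTRL 157, 162 and 163. KO 148 stood at 1.24 times the CTRL mean and KO 146 at 2.41 times. The log2 fold change was 0.75 (SE 0.25, edgeR adjusted p = 0.109), and 0.39 without KO 146.

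Lama1 encodes the alpha chain of the earliest embryonic basement membranes, which persists in tubular and mesangial matrix (ENSMUSG00000032796, chromosome 17, 67697259 to 67822647, plus strand). It had 13.2, 18.4 and 19.0 CPM in KO 146, 147 and 148, against 23.2, 28.9 and 20.6 CPM in CTRL 157, 162 and 163. The groups did not overlap, but KO 148 and CTRL 163 were separated by less than the spread within either group. The log2 fold change was -0.52 (SE 0.18, edgeR adjusted p = 0.123), and no alternative called it. Lama2, the alpha chain best known from muscle and nerve and found in mesangial matrix (ENSMUSG00000019899, chromosome 10, 26980036 to 27619758, minus strand), was the least abundant of the 10. It had 6.78, 5.70 and 4.62 CPM in KO 146, 147 and 148, against 2.79, 2.65 and 3.10 CPM in CTRL 157, 162 and 163. All KO libraries lay above all CTRL libraries, with a log2 fold change of 1.0 (SE 0.18, edgeR adjusted p = 0.0655). An annotated antisense gene on the opposite strand, Gm48084, covers 3.86% of the exonic bases of Lama2, and the strand setting of the counting is not given, so its reads cannot be told apart there.

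The beta chains differed in size of effect. Lamb2, the beta chain of the mature filtration barrier (ENSMUSG00000052911, chromosome 9, 108479736 to 108490530, plus strand), had 293, 129 and 88.3 CPM in KO 146, 147 and 148, against 62.5, 63.9 and 60.8 CPM in CTRL 157, 162 and 163. The CTRL libraries agreed within 1.05-fold, while KO 146 was 3.32 times KO 148. Its log2 fold change was 1.45 (SE 0.42, edgeR adjusted p = 0.0878), and 0.79 without KO 146. Lamb1, the more widespread beta chain and the one of the immature glomerulus (ENSMUSG00000002900, chromosome 12, 31265234 to 31329644, plus strand), had 179, 182 and 152 CPM in KO 146, 147 and 148, against 136, 133 and 146 CPM in CTRL 157, 162 and 163. Its difference was the smallest of the 10, with KO 148 at 1.10 times the CTRL mean. The log2 fold change was 0.31 (SE 0.10, edgeR adjusted p = 0.109), and edgeR called it in 1 of 14 alternatives, without KO 148 (adjusted p = 0.0445, range over alternatives 0.0445 to 0.647).

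The upstream sequences of the 2 beta chain genes are shown because the balance between these genes differed most among the shares given here. They are from RefSeq promoter windows on GRCm38.p6 (250 bases before to 50 after a start), cut to the bases before the first GENCODE start, and run 5′ to 3′ on the gene's strand. Windows were present for 7 of the 10 genes and left at least 50 such bases for 6. Capitals mark exact matches, on either strand, to the letters GGGCGG of the GC box and to the CCAAT box, named by its own letters. The TATA box was searched as TATAAA.
Lamb2, chr9:108479612-108479735, plus strand: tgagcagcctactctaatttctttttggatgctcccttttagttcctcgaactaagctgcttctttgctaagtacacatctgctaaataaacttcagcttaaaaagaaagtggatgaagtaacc
Lamb1, chr12:31265043-31265233, plus strand: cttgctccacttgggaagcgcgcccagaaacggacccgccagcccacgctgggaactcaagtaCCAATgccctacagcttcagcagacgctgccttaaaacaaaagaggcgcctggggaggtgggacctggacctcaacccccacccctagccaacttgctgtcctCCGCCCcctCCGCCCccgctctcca
The whole 300-base window of Lamb2 was 44.0% G or C and held 0 matches to any of the 3 motifs. That of Lamb1 was 63.7% G or C, with 2 GC boxes, 1 CCAAT box and 0 TATA boxes. Of all 32851 windows in the table, 35.7% held a GC box, 37.4% a CCAAT box and 13.6% a TATA box, and the median was 52.7% G or C. A match describes letters and no more.

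The gamma chain and its linker were highest in the same libraries. Lamc1, the gamma chain shared by nearly all laminins of the kidney (ENSMUSG00000026478, chromosome 1, 153218922 to 153332786, minus strand), had 246, 139 and 106 CPM in KO 146, 147 and 148, against 65.9, 61.8 and 64.2 CPM in CTRL 157, 162 and 163. Every KO library lay above every CTRL library, and the log2 fold change was 1.35 (SE 0.30, edgeR adjusted p = 0.0753). Nid1 encodes nidogen-1, which binds the laminin gamma chain with one globule and type IV collagen and perlecan with another (ENSMUSG00000005397, chromosome 13, 13437551 to 13512269, plus strand). It had 227, 103 and 71.0 CPM in KO 146, 147 and 148, against 30.2, 30.7 and 32.8 CPM in CTRL 157, 162 and 163. The lowest KO library was 2.27 times and the highest 7.27 times the CTRL mean. The log2 fold change was 2.10 (SE 0.41, edgeR adjusted p = 0.0722), next in size to that of Lama4. The antisense gene Gm48682 covers 2.06% of its exonic bases.

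Of the proteoglycans, perlecan differed more than agrin. Hspg2 encodes perlecan, found mainly in mesangial matrix and Bowman's capsule (ENSMUSG00000028763, chromosome 4, 137468769 to 137570630, plus strand). It had 371, 188 and 118 CPM in KO 146, 147 and 148, against 78.0, 80.4 and 76.8 CPM in CTRL 157, 162 and 163. The groups did not overlap, and the KO libraries spanned a 3.16-fold range. The log2 fold change was 1.53 (SE 0.39, edgeR adjusted p = 0.0785), and 0.96 without KO 146. Agrn encodes agrin, the main heparan sulfate proteoglycan of the filtration barrier (ENSMUSG00000041936, chromosome 4, 156165290 to 156197488, minus strand). It had 285, 166 and 149 CPM in KO 146, 147 and 148, against 124, 116 and 127 CPM in CTRL 157, 162 and 163. KO 148 was 1.22 times the CTRL mean, and the log2 fold change was 0.71 (SE 0.24, edgeR adjusted p = 0.118), and 0.36 without KO 146.

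The upstream bases of this pair are given in the same way, since its balance also differed between the groups and both are rich in GC boxes.
Hspg2, chr4:137468553-137468768, plus strand: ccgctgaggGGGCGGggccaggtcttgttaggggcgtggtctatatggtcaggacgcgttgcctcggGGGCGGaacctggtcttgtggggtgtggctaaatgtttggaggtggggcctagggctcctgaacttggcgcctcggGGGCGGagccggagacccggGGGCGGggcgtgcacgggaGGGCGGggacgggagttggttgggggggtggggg
Agrn, chr4:156197489-156197738, minus strand: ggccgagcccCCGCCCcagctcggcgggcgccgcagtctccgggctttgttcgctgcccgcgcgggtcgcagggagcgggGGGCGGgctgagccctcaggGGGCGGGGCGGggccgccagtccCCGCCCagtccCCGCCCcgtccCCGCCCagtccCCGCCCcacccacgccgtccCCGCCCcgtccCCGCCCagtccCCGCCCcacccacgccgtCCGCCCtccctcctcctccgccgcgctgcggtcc
The 300-base window of Hspg2 held 5 GC boxes and that of Agrn 12, counting overlapping matches, at 70.3% and 83.3% G or C. Neither held a CCAAT box or a TATA box.

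Levels can be compared between genes only per length, as RPKM, the CPM divided by the kilobases of annotated exon. In the libraries labelled KO, Lamb2 was highest (28.0 ± 17.8 RPKM), followed by Agrn (21.6 ± 7.98), Lamc1 (19.8 ± 8.83), Nid1 (19.3 ± 11.9), Lamb1 (17.2 ± 1.64), Lama5 (16.7 ± 6.27) and Hspg2 (15.8 ± 9.15; SD, n = 3 each). These 7 overlapped with their neighbours in that order. Lama4 (2.63 ± 1.64 RPKM) and Lama1 (1.74 ± 0.328) overlapped too, and Lama2 was lowest at 0.349 ± 0.066 RPKM. In the libraries labelled CTRL, Lamb1 (13.9 ± 0.685 RPKM) and Agrn (13.2 ± 0.629) were highest and overlapped, as did Lamb2 (10.3 ± 0.253) and Lama5 (9.91 ± 0.332; SD, n = 3 each). Below them, without overlap, came Lamc1 (7.73 ± 0.246 RPKM), Hspg2 (5.48 ± 0.128), Nid1 (4.5 ± 0.199), Lama1 (2.50 ± 0.442), Lama4 (0.548 ± 0.0353) and Lama2 (0.174 ± 0.0139). Lama1 thus stood above Lama4 with the CTRL label and below it with the KO label, where the overlap is by exonic length. By the longest transcript the KO means were 5.25 RPKM for Lama4 and 1.77 RPKM for Lama1. Dividing by the longest transcript instead left the CTRL order of all 10 as it was, with Lamb1 at 23.9 RPKM, and put Lamb1 in place 2 of the KO order.

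Summed over the 7 laminin chains the level was 126, 74.5 and 58.6 RPKM in KO 146, 147 and 148, against 44.8, 44.8 and 45.6 RPKM in CTRL 157, 162 and 163. The log2 ratio of that sum to the summed RPKM of the proximal tubule markers was -6.54, -7.95 and -8.44 in the KO libraries, against -9.27, -9.25 and -9.29 in the CTRL libraries. The CTRL libraries were alike in both, and KO 148 lay nearest to them.

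Shares within a library do not depend on its size, and that of the beta chains differed between the groups. Lamb2 made up 72.8%, 53.6% and 48.6% of beta chain RPKM in KO 146, 147 and 148, against 42.8%, 44.0% and 40.5% in CTRL 157, 162 and 163. The groups did not overlap, with a difference of 15.9 percentage points (exact two-sided permutation p = 0.1, the smallest that 3 against 3 can give). Without KO 146 the difference was 8.68 points. By the longest transcript the shares of Lamb2 were 62.7%, 42.2% and 37.3% in KO 146, 147 and 148, against 32.0%, 33.1% and 30.0% in CTRL 157, 162 and 163. The direction is the same by either length, while which beta chain is the larger in KO 147 depends on the length used. Of the RPKM summed over Lama1, Lama2, Lama4 and Lama5, Lama5 took most in every library. It held 79.2%, 76.1% and 77.5% in KO 146, 147 and 148, against 75.6%, 72.8% and 78.0% in CTRL 157, 162 and 163. These shares overlapped (exact permutation p = 0.4), and the difference of 2.15 points turned to -2.81 by the longest transcript. Lama3, an alpha chain not among the genes followed, was left out of this sum. Its mean was 30.9 CPM with the KO label and 33.8 CPM with the CTRL label, so shares of all alpha chains would be lower.

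Within the RPKM summed over Lama1, Lama2, Lama4 and Lama5, the shares of Lama4 and Lama1 differed in opposite directions. Lama4 held 14.8%, 11.6% and 8.36% of that sum in KO 146, 147 and 148, against 4.28%, 3.82% and 4.43% in CTRL 157, 162 and 163. Lama1 held 4.54%, 10.4% and 12.4% in KO 146, 147 and 148, against 18.8%, 22.2% and 16.1% in CTRL 157, 162 and 163. Neither overlapped between the groups (exact permutation p = 0.1 each), by either length. Lama2 stayed under 2% by exonic length, at 1.38% to 1.92% with the KO label and 1.21% to 1.44% with the CTRL label, with overlap. Agrn made up 54.2%, 57.6% and 66.2% of the RPKM of agrin and perlecan in KO 146, 147 and 148, against 71.0%, 68.9% and 71.8% in CTRL 157, 162 and 163, a difference of -11.3 points without overlap (exact permutation p = 0.1). Nid1 stood at 1.10, 0.887 and 0.797 per unit of Lamc1 in KO 146, 147 and 148, against 0.546, 0.591 and 0.609 in CTRL 157, 162 and 163, again without overlap (exact permutation p = 0.1).

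**Figure D2:**
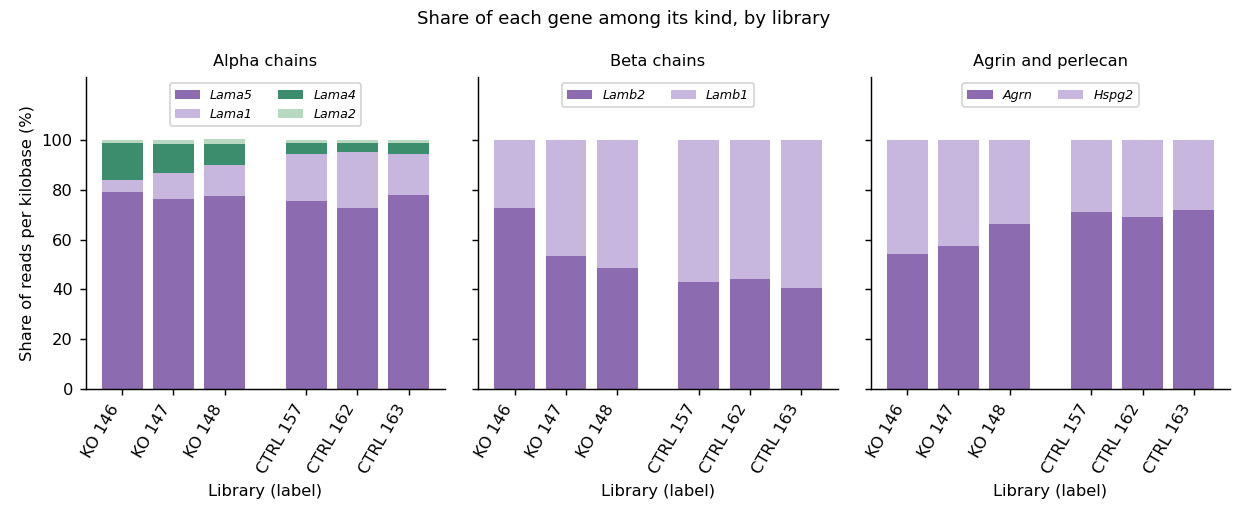
Share of RPKM (percent) among Lama1, Lama2, Lama4 and Lama5, between Lamb1 and Lamb2, and between Agrn and Hspg2. Each bar is 1 library, with libraries labelled KO at the left and those labelled CTRL at the right. The Lamb2 part shrinks across KO 146, 147 and 148 and is smaller in every CTRL library, while the Lama5 part is nearly level.

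The spread among the 3 libraries labelled KO had the same order for most genes and for the glomerular markers. KO 146 was highest, KO 147 next and KO 148 lowest for 8 of the 10 genes, all but Lama1 and Lamb1. The mean of the podocyte, endothelial and mesangial lists was 7.31, 6.04 and 5.51 log2 CPM in KO 146, 147 and 148, against 4.65, 4.66 and 4.76 in CTRL 157, 162 and 163. The proximal tubule mean ran the other way, at 9.0, 9.54 and 9.70 log2 CPM in KO 146, 147 and 148, against 10.12, 10.02 and 10.03 in CTRL 157, 162 and 163. All 20 podocyte, 20 endothelial and 20 mesangial markers had a positive log2 fold change (medians 2.06, 1.74 and 1.81). edgeR called 0 of each, where 0.591% of all tested genes were called higher. At an unadjusted p below 0.05, 20, 20 and 18 were higher (17.5% of all tested genes), and DESeq2 called 20, 19 and 15 higher (12.1%). All 24 proximal tubule markers had a negative one, with a median of -0.57 and 2 called lower, and so had the 19 tested markers of later nephron segments (loop, distal tubule, collecting duct), with a median of -0.42. Of 13 parietal epithelial markers 1 was called higher, and their median was -0.20. Markers of blood and immune cells overlapped between the groups, at 371 to 679 CPM summed with the KO label and 210 to 842 CPM with the CTRL label.

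Between KO 146 and KO 148, which share a label, the glomerular mean differed by 1.80 on the log2 scale, Lama4 by 1.75, Lamb2 by 1.73, Nid1 by 1.68 and Hspg2 by 1.66. Lamc1 differed by 1.21 between the same libraries, Lama5 by 0.96, Agrn by 0.93, Lama2 by 0.55 and Lamb1 by 0.23, and Lama1 by -0.52. Between KO 148 and the CTRL mean the glomerular mean differed by 0.82, Lama4 by 1.27, Nid1 by 1.19, Lamc1 by 0.73, Lama2 by 0.69, Hspg2 by 0.58 and Lamb2 by 0.50. For Lama2 the step from CTRL to KO 148 was thus larger than that from KO 148 to KO 146, and for the other 6 of these 7 values it was smaller. Within the CTRL group no gene of the 10 other than Lama1 (0.49) spanned more than 0.22.

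**Figure D3:**
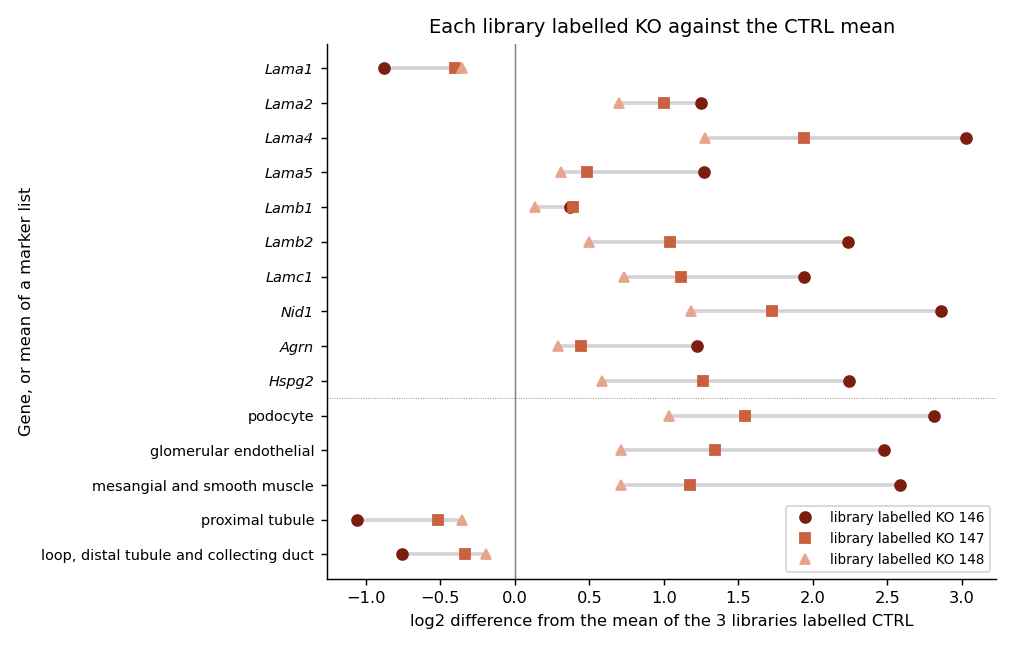
log2 difference of each library labelled KO from the mean of the 3 libraries labelled CTRL, for each gene (above the dotted line, from CPM) and for the mean log2 CPM of 5 marker lists (below it); the grey bar joins the 3 libraries. Lama4, Nid1, Lamb2 and Hspg2 spread over KO 146, 147 and 148 about as widely as the glomerular lists, Lamb1 hardly spreads, and Lama1 lies left of 0 with the tubule lists.

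Set against the glomerular marker mean of its own library, Lama4 and Nid1 had higher values with the KO label and most of the others lower ones. Nid1 stood 0.52, 0.65 and 0.64 log2 CPM above that mean in KO 146, 147 and 148, against 0.27, 0.28 and 0.28 in CTRL 157, 162 and 163. Lama4 stood at -1.55, -1.37 and -1.50 in the KO libraries, against -1.92, -2.02 and -1.93 in the CTRL libraries. Neither overlapped between the groups (exact permutation p = 0.1 each). Hspg2 overlapped, with means of 1.37 ± 0.14 with the KO label and 1.61 ± 0.09 with the CTRL label (SD, n = 3 each, exact permutation p = 0.2). The glomerular mean is itself higher in every KO library, so most genes lie lower on this scale: of all 17086 tested genes 87.8% lay below in all KO libraries and 0.878% above. The remaining 7 of the 10 lay lower in all KO libraries than in all CTRL libraries, by -0.33 (Lamc1) and -0.34 (Lamb2) to -1.29 (Lamb1) and -2.12 (Lama1) on the log2 scale, as most genes did.

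With the glomerular mean as a covariate, edgeR called 1 of the 10, Nid1, higher (log2 fold change 0.45, adjusted p = 0.0345, range over all alternatives 6.47e-06 to 0.264; 1.34% of all genes were called higher) and none of the other 9, Lama4 being at 0.56 (adjusted p = 0.0674). With the proximal tubule mean as a covariate it called 0 of the 10, and 0.954% of all genes higher. The values were then 0.58 for Lama4 (adjusted p = 0.159), 0.54 for Lama2 (0.292), 0.45 for Nid1 (0.105), 0.21 for Lamc1 (0.464), 0.15 for Lamb1 (0.606) and -0.07 for Lama1 (0.917). Lama5, Lamb2, Agrn and Hspg2 turned to -0.19, -0.25, -0.20 and -0.03, with adjusted p values from 0.397 to 0.949. Neither covariate overlaps between the groups, so covariate and label are only partly separable in these fits, and the part of cell content in the differences was not tested.

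**Figure D4:**
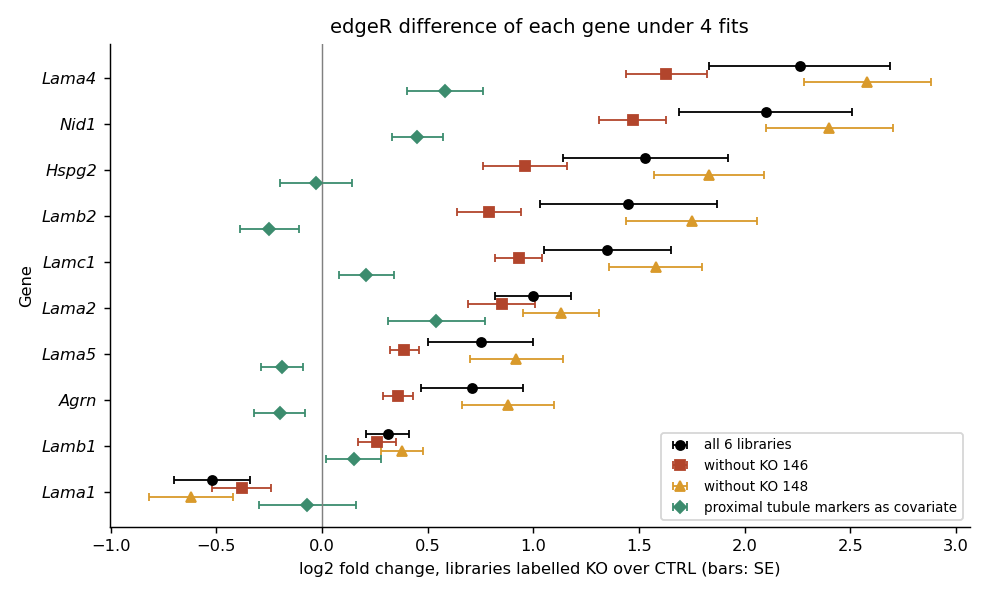
edgeR log2 fold change (x axis; bars are SE) of each gene for libraries labelled KO over those labelled CTRL, from all 6 libraries, without KO 146, without KO 148, and with the proximal tubule marker mean as a covariate. Leaving out KO 146 shrinks and leaving out KO 148 enlarges all 10 values in size without turning any sign, and with the covariate all lie between -0.25 and 0.58.

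The genes whose profile over the 6 libraries lay nearest to each of the 10 were found by the root mean square difference of centred log2 CPM among 10871 protein-coding genes of at least 5 CPM (10872 for Lama2, which is below that level). For Lamc1 these were Gng11 (0.023), Timeless (0.044) and Chrnb1 (0.048), and for Hspg2 Rftn1 (0.024), Igfbp5 (0.044) and Dock6 (0.049). For Agrn they were Qk, Sept7 and Fermt2 (0.026 to 0.036), and for Lama5 Zfp608, Myh9 and Ppp1r9b (0.033 to 0.036). Lamb2 was nearest to Klf4, Adgre5 and Ptprm (0.034 to 0.041), Nid1 to Gpsm3, Pcdh12 and Lgals9 (0.037 to 0.047), and Lama4 to Emid1, Serpini1 and H2-Q7 (0.039 to 0.058). Lamb1 was nearest to Nup62, Tcof1 and Clic1 (0.032 to 0.05), Lama2 to Tubb5, Mcm5 and Ccdc92 (0.034 to 0.09), and Lama1 to N4bp2l1, Bhmt2 and Ppara (0.068 to 0.079). None of the 10 was among the 3 nearest of another. The distances are descriptive, over 6 libraries.

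Of 24 further laminin chains and matrix proteins, all tested, edgeR called 0 (1.01% of all tested genes), and their median log2 fold change was 0.60. At an unadjusted p below 0.05, 13 were higher and 1 lower, against 17.5% and 11.8% of all tested genes. DESeq2 called 11 of them higher (12.1% of all genes). Nid2, the second nidogen, had 118, 61.4 and 46.6 CPM in KO 146, 147 and 148, against 26.7, 26.8 and 23.9 CPM in CTRL 157, 162 and 163 (log2 fold change 1.55, SE 0.33, edgeR adjusted p = 0.0753). Like Nid1 it lay higher in every KO library. The smallest p values in this list were those of Sparc, a collagen-binding matricellular protein (1.88), Col15a1, a basement membrane zone collagen (2.13), and Frem2, a Fraser complex protein (0.77), with edgeR adjusted p values from 0.0727 to 0.0731. Lamb3, a beta chain of epithelial laminin, stood at -0.31 (edgeR adjusted p = 0.406).

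All 6 type IV collagen chains had positive values with a median of 0.71, and edgeR called 0, where 1.01% of the whole tested set passed. Without adjustment, 4 were higher (edgeR p below 0.05), beside 17.5% over the whole set. DESeq2 called 3 higher (12.1% of all genes). Col4a1 and Col4a2, the chains of nearly all basement membranes, stood at 1.35 and 1.39, while Col4a5, a chain of the mature filtration barrier, stood at 0.75 (edgeR adjusted p values 0.0649, 0.0662 and 0.0811).

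Of 13 receptors of laminin, agrin and perlecan, 12 were tested, with a median of 0.63. edgeR called 0 of the 12, where 1.01% of the whole tested set passed. Without adjustment, 8 were higher and 0 lower (edgeR p below 0.05), beside 17.5% and 11.8% over the whole set. DESeq2 called 5 higher (12.1% of all genes). Itga3, the alpha subunit of the main podocyte laminin receptor, had 323, 147 and 101 CPM in KO 146, 147 and 148, against 61.6, 59.7 and 67.6 CPM in CTRL 157, 162 and 163 (log2 fold change 1.60, SE 0.41, edgeR adjusted p = 0.0785). Its partner Itgb1 stood at 0.82 (adjusted p = 0.114 by edgeR), and Dag1, the dystroglycan that binds laminin, agrin and perlecan through its glycans, at 0.64 (edgeR adjusted p = 0.126). Itga2 and Itga6, which can pair with Itgb1, stood at 1.67 and 0.48 (edgeR adjusted p = 0.0775 and 0.078).

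The 22 enzymes that build or trim heparan sulfate and dystroglycan glycans were nearly level, with a median of 0.07 and 13 positive. At an unadjusted p below 0.05, 4 were higher and 1 lower, beside 17.5% and 11.8% of all tested genes. The share of higher enzymes was thus close to that of all genes. edgeR called 0 (1.01% of all tested genes), and DESeq2 called 1 higher and 1 lower. Over all 16414 genes with an adjusted p, DESeq2 called 2959, of which 1993 (12.1% of all) were higher and the rest lower. Sulf1, a sulfatase that removes sulfate groups from heparan sulfate outside the cell, had 46.5, 17.3 and 11 CPM in KO 146, 147 and 148, against 5.27, 5.57 and 7.23 CPM in CTRL 157, 162 and 163 (log2 fold change 2.05, SE 0.53, edgeR adjusted p = 0.0787). Sulf2 stood at 0.38 and Xylt1, which starts the glycan chains of proteoglycans, at -0.37 (edgeR adjusted p = 0.107 and 0.0857).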

How the data were processed

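The authors deposited 1 table of unnormalized read counts per library. The submitters' processing notes list HTSeq 0.11.1, STAR 2.6.0, fastp 0.19.5 and DESeq2 without their roles, and the human build GRCh37, although the identifiers are those of mouse Ensembl genes. Neither annotation release nor strand setting is stated in these sources. The 5 closing lines that name no gene were left out: 2.57% to 3.41% of records in no feature, 1.55% to 1.79% ambiguous, 0.13% to 0.15% of low alignment quality, 0.7% to 1.22% unaligned and 22.51% to 29.63% aligned to several places. KO 146 had the lowest share aligned to several places, at 22.51%, with 27.06% or more in every other library. It also had the most gene counts (51917945).

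Names, positions and exonic lengths came from GENCODE M21 (GRCm38), which named 54809 of 54838 identifiers. Counts were tested in R 4.3.3 with edgeR 4.0.16: filterByExpr with a minimum count of 10, TMM, a robust quasi-likelihood F test of KO against CTRL, and Benjamini-Hochberg adjustment over 17086 tested genes, called below 0.05. SE is the absolute log2 fold change over the square root of F. Log CPM used a prior count of 2. DESeq2 1.42.0 and limma 3.58.1 were alternatives. The smallest p of the exact permutation tests is 0.1. The members and all gene lists were chosen with earlier results of these data known. Named were the 10 genes, 6 fixed pathway genes, the targeted gene, and the 3 smallest p values of each pathway list. Lama3 was named as well, as an alpha chain left out of the shares. 1 of the fixed pathway genes is not reported here.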

Additional observations from a re-analysis of the deposited data

How the results depend on the processing

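No paired analysis was made, because the labels give no pairing or batch. The KO and CTRL animals carry different numbers, which do not show whether any were related. Of the values of the 10 genes under 14 alternatives, 105 kept their sign and stayed on the same side of the threshold, 27 kept their sign and passed it, and 8 turned sign. The count of the 10 genes called, 0 in the fit to all libraries, was 1 without a filter on low counts (Lama2), 8 by DESeq2, 1 with the glomerular covariate, and 0 to 9 with 1 library left out. The count of all genes called, 173, was 960 without a filter, 2959 by DESeq2, 297 with the glomerular covariate, and 2 to 3211 with 1 library left out: 2974, 2 and 3211 without KO 146, 147 and 148, and 2, 3 and 10 without CTRL 157, 162 and 163. The median log2 fold change of the 10 was 0.82 to 1.36 with 1 library left out, 0.06 with the proximal tubule covariate and 0.05 with the glomerular covariate. Signs turned under the covariates: with the proximal tubule mean Lama5 was at -0.19, Lamb2 at -0.25, Agrn at -0.2 and Hspg2 at -0.03, and with the glomerular mean at -0.19, -0.26, -0.2 and -0.05. The cause was not tested. Library totals in place of TMM moved the median of all tested genes from -0.006 to 0.132 and that of the 10 from 1.18 to 1.34. The difference in the Lama5 share, 2.15 points, was -2.81 by the longest transcript, which lowers the divisor of Lama4 and Lama2 and leaves that of Lama5. The shares of Lamb2 and Agrn kept their direction under both lengths and with each library left out, at 8.68 to 20.8 and -14.7 to -8.69 points, and that of Lama5 ran from 0.805 to 3.43 points with 1 library left out. The lowest count behind any value of the 10 genes was 101.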
